A study of Mus musculus with 8 samples.

Results

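Genes of retinoic acid handling were examined in whole brains of mouse embryos: the synthesising enzymes *Aldh1a1*, *Aldh1a2* and *Aldh1a3*, the degrading enzyme *Cyp26b1*, the receptors *Rara*, *Rarb* and *Rarg*, and the carrier proteins *Crabp1* and *Crabp2*. They were chosen by gene symbol, and all 9 of them stand in the table of 33971 genes. The brains came from wild-type (WT) embryos at the embryonic stage E14.5, carried by WT females mated with WT males. In the choline deficient diet group (CDD, 4 brains) the pregnant mothers ate a diet without sufficient choline, and in the normal chow diet group (ND, 4 brains) they ate standard chow. The study's methods start the CDD at mating, while a legend in its supplement places the start 2 weeks earlier. The number of mothers and litters behind the brains is not given, and neither is the sex of the embryos, so the p-values below measure only the spread between these brains. RNA with poly-A tails was sequenced from the whole organ, in which fewer cells of a type and less RNA per cell cannot be told apart.

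Retinoic acid is made from vitamin A (retinol) in 2 oxidation steps, the last of which is carried out by the ALDH1A enzymes. It enters the nucleus with the help of CRABP proteins and binds RAR receptors, which work in pairs with RXR receptors and switch target genes on or off, while CYP26 enzymes break it down and so set its borders in tissue. In the embryonic brain *Aldh1a2* is best known from the meninges, *Aldh1a1* from dopaminergic neurons of the ventral midbrain and from the retina, and *Aldh1a3* from the lateral ganglionic eminence, the source of striatal neurons, and from the eye.

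Between 31770217 and 43121170 reads were counted on genes per brain. Expression is given as CPM, a gene's reads scaled to a common library total with TMM factors, and a level that is compared between genes is given as CPM per kb of the gene length that the authors list. Diets were compared with edgeR's quasi-likelihood test over 19367 genes, with adjusted p (Benjamini-Hochberg) under 0.05 as the threshold, and log2 fold changes are CDD over ND. CDD replicate 2 stood apart from the other brains. Together, 12 marker genes of the caudal hindbrain and spinal cord, 10 of them Hox genes, summed to 141 CPM in it, against 3.83 to 9.54 CPM in the other CDD brains and 4.32 to 6.30 CPM in the ND brains. Results are therefore given with and without this brain where it decides them.

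All 9 genes were detected in every brain, with 52 to 2980 reads per gene and brain, and all 9 passed the filter on low counts. Of these, 3 differed between the diets: *Aldh1a1* and *Aldh1a2* were lower in CDD brains and *Crabp2* was higher. Of all tested genes 8.83% differed, 4.59% being lower and 4.24% higher in CDD brains, so 3 of 9 is a larger share, over few genes. The 9 genes were chosen with earlier results of these data known, so shares among them cannot serve as a test against all genes. In 4 of the 9 genes, *Aldh1a1*, *Aldh1a2*, *Aldh1a3* and *Crabp2*, the brains of the 2 diets did not overlap, as was the case for 15.0% of all tested genes. The median log2 fold change of the 9 genes was -0.06, and that of all tested genes was -0.0038. The 2 lower genes encode enzymes of synthesis, and none of the 3 receptors or the degrading enzyme passed the threshold by edgeR, as the plot of each gene by brain shows.

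**Figure D1:**
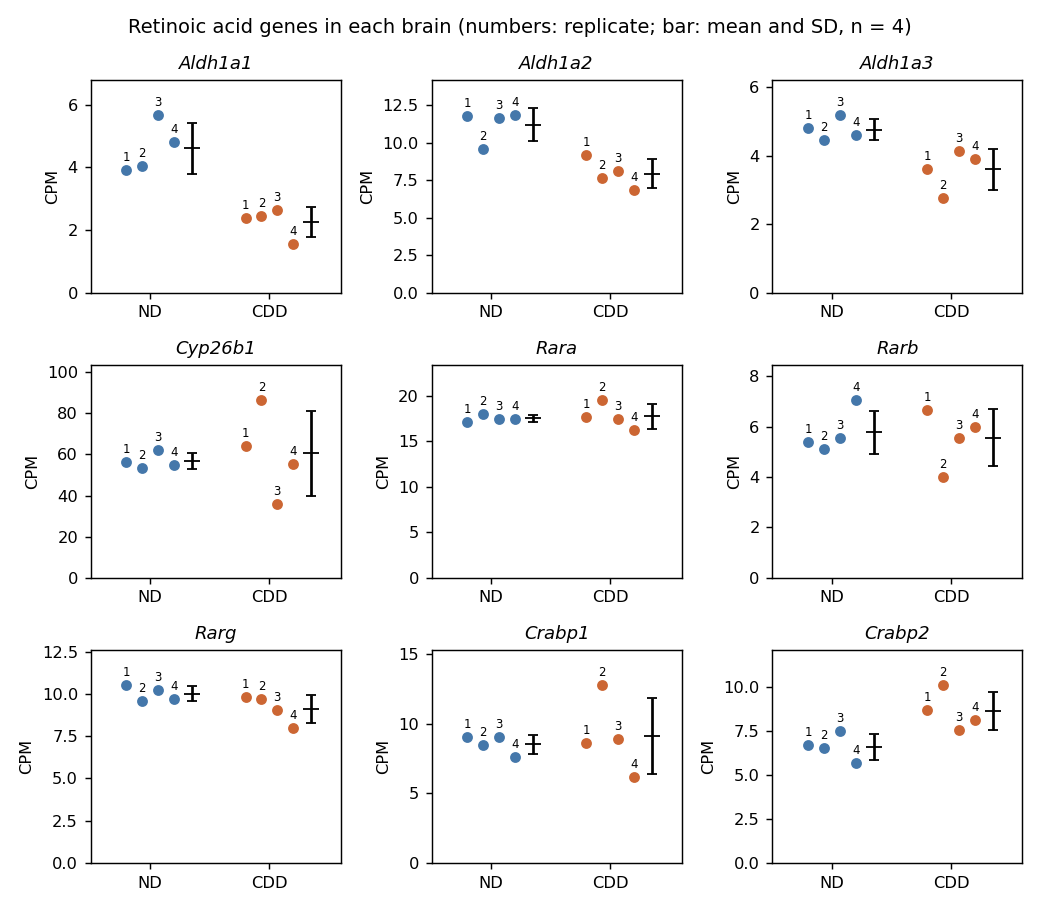
CPM of each retinoic acid gene (vertical axis, from 0, a separate scale for each gene) in the 4 ND and the 4 CDD brains, with replicate numbers beside the points and the mean and SD of each diet as a black bar. The diets are apart for *Aldh1a1*, *Aldh1a2*, *Aldh1a3* and *Crabp2*, and for *Cyp26b1* the CDD brains spread from 36.1 to 86.3 CPM, on both sides of the ND brains.

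Levels per length spanned a wide range. In ND brains they ran in the order *Crabp1* (10.6 ± 0.845 CPM per kb, SD, n = 4), *Cyp26b1* (10.6 ± 0.715), *Crabp2* (5.0 ± 0.568), *Aldh1a2* (4.95 ± 0.483), *Rara* (4.01 ± 0.0864), *Rarg* (2.35 ± 0.103), *Rarb* (1.10 ± 0.165), *Aldh1a3* (1.03 ± 0.0685) and *Aldh1a1* (0.933 ± 0.164). Neighbours whose ND brains overlapped, and whose order is therefore not settled, were *Crabp1* and *Cyp26b1*, *Crabp2* and *Aldh1a2*, *Rarb* and *Aldh1a3*, and *Aldh1a3* and *Aldh1a1*. In CDD brains *Rara* came before *Aldh1a2*, again with overlapping brains, and *Aldh1a3* lay above *Aldh1a1* without overlap. The most abundant member, *Crabp1*, lay above 73.9% of the tested genes in level per length and the least abundant, *Aldh1a1*, above 21.6%.

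*Aldh1a1* (chromosome 19, 20470079 to 20620829, positions from the authors' table, which names no genome build) encodes a retinaldehyde dehydrogenase. It was at 3.92, 4.03, 5.67 and 4.81 CPM in ND replicates 1 to 4 and at 2.38, 2.43, 2.65 and 1.57 CPM in CDD replicates 1 to 4. Every CDD brain was below every ND brain, and CDD replicate 4 was the lowest. The means were 2.26 ± 0.474 CPM (SD, n = 4) under CDD and 4.61 ± 0.810 CPM (SD, n = 4) under ND, a log2 fold change of -1.02 (standard error, SE, 0.165, adjusted p = 0.00163 by edgeR), so that its level dropped by 50.7%. The change was largest in size among the 9 members, and the gene had the p-value of rank 71 among the 19367. These values rest on 52 to 196 reads per brain. The call held with each brain left out in turn, with log2 fold changes of -1.11 to -0.89. The neighbouring paralog *Aldh1a7* had 10 to 18 reads per brain, and 1 of the 4934 windows of 100 bases in *Aldh1a1* transcripts also occurs in *Aldh1a7*.

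*Aldh1a2* (chromosome 9, 71123071 to 71203525) encodes the enzyme that makes most retinoic acid in the early embryo. ND replicates 1 to 4 were at 11.8, 9.57, 11.6 and 11.8 CPM, and CDD replicates 1 to 4 at 9.15, 7.62, 8.11 and 6.82 CPM. ND replicate 2 was low among the ND brains and lay just above CDD replicate 1, the highest CDD brain. The means were 7.92 ± 0.974 CPM (SD, n = 4) under CDD and 11.2 ± 1.09 CPM (SD, n = 4) under ND, with a log2 fold change of -0.50 (SE 0.0999, adjusted p = 0.00507 by edgeR). Its level dropped by 29.3%, and the call held in all 8 fits that left out a brain, with log2 fold changes of -0.57 to -0.44.

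*Aldh1a3* (chromosome 7, 66040638 to 66077265), the third enzyme of the family, was at 4.80, 4.44, 5.18 and 4.61 CPM in ND replicates 1 to 4 and at 3.59, 2.75, 4.14 and 3.89 CPM in CDD replicates 1 to 4. The diets did not overlap, yet the gene missed the threshold, with a log2 fold change of -0.40 (SE 0.133, adjusted p = 0.0651 by edgeR, unadjusted p = 0.0069). It passed with DESeq2, without the filter on low counts, and without CDD replicate 3. The means were 3.59 ± 0.602 CPM (SD, n = 4) under CDD and 4.76 ± 0.316 CPM (SD, n = 4) under ND.

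Summed as level per length, the 3 enzymes were at 7.04, 6.0, 7.4 and 7.20 CPM per kb in ND replicates 1 to 4 and at 5.30, 4.46, 5.01 and 4.17 CPM per kb in CDD replicates 1 to 4. The mean was 4.74 ± 0.515 CPM per kb (SD, n = 4) under CDD and 6.91 ± 0.623 CPM per kb (SD, n = 4) under ND. *Aldh1a2* made up most of the sum, with 73.8 ± 2.39% (SD, n = 4) under CDD and 71.6 ± 2.09% in ND brains. The share of *Aldh1a1* was 9.62 ± 1.58% in CDD and 13.5 ± 1.73% in ND brains, and CDD replicate 2 (11.1%) lay close to ND replicate 1 (11.3%). *Aldh1a3* held 16.5 ± 3.09% and 14.9 ± 0.889%.

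**Figure D2:**
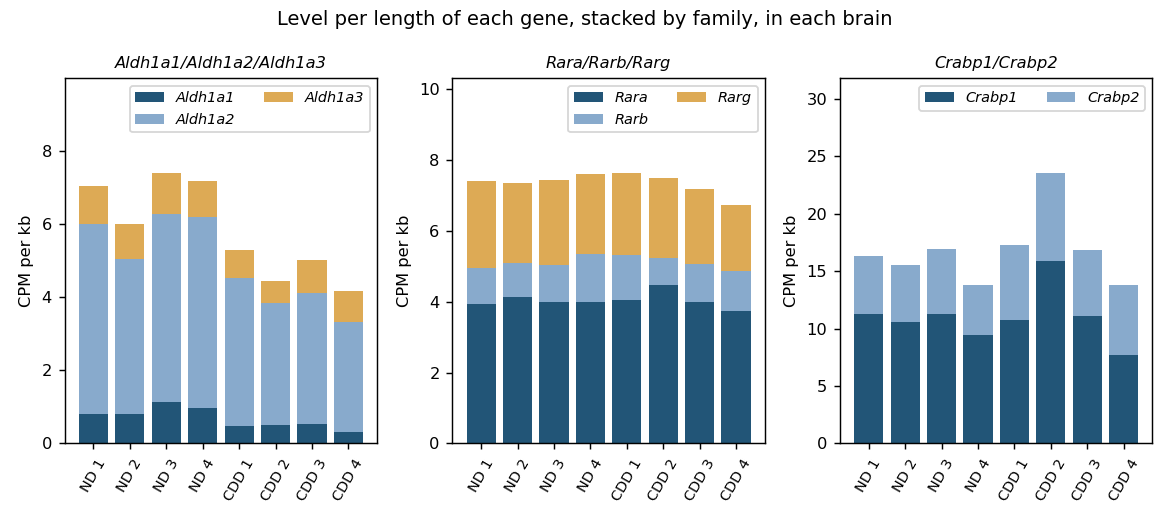
Level per length (vertical axis, CPM per kb, from 0) of the ALDH1A enzymes, the RAR receptors and the CRABP carriers, stacked within each family, in each ND and CDD brain (horizontal axis). The stack of synthesising enzymes is between 6.0 and 7.4 in ND and between 4.17 and 5.30 in CDD brains, while the receptor stacks overlap and CDD replicate 2 has the tallest carrier stack (23.5).

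*Aldh1a1* and *Aldh1a2* fell together, so the stretches around their starts are shown, from 250 bases before to 50 bases after the start of a RefSeq transcript on GRCm38.p6 (positions on this build are not comparable with the gene positions above). Of the 9 genes, 7 matched an entry in the RefSeq promoter table. The motif AGGTCA, to which RAR and RXR receptors bind, its relative AGTTCA, a form that starts with G (GGGTCA) and another of this kind (GGTTCA) were searched on both strands and are in capitals. At least 1 of them occurs in 43.7% of the 32851 promoters in the table, and a pair on the same strand with a gap of 5, 2 or 1 bases, the arrangement known from retinoic acid response elements, in 0.588%. Of the *Aldh1a1* entries, the one that holds a motif is printed, and the other (chr19:20492333-20492632) holds 0.
Aldh1a1, chr19:20601718-20602017, plus strand: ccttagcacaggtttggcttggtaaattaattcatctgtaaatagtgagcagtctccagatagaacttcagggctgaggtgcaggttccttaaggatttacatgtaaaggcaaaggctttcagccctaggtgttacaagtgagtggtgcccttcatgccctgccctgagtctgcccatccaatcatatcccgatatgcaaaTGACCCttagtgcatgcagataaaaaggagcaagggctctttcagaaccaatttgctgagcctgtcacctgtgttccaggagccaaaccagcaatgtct
Aldh1a2, chr9:71215539-71215838, plus strand: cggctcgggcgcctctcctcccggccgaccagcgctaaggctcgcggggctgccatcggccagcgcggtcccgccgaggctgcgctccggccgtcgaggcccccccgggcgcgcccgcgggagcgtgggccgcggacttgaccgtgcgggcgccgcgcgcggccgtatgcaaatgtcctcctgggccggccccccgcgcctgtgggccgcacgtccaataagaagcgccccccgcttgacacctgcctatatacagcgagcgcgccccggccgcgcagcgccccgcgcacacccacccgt
The printed *Aldh1a1* stretch, chosen because it holds a motif, has 1 on the opposite strand, and the *Aldh1a2* stretch holds none of these motifs. Their base composition differed, with a GC content of 47.0% for this *Aldh1a1* stretch and 78.0% for *Aldh1a2*.

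Marker genes of the places where the synthesising enzymes are known to be expressed were examined in the same brains. Of 10 genes of meningeal fibroblasts, all of them tested, 3 were lower in CDD brains and 1 was higher by edgeR, and 6 had an unadjusted p under 0.05. With limma-voom 2 of the 10 passed. *Slc6a13*, a GABA and taurine transporter of the meninges, showed a log2 fold change of -0.57 (adjusted p = 0.00128 by edgeR). The collagen genes *Col1a1* and *Col1a2* had log2 fold changes of -0.23 (adjusted p = 0.0126) and -0.23 (adjusted p = 0.0453). *Col1a1* passed in 6 of 8 fits that left out a brain (not without ND replicate 1 or ND replicate 3). The call of *Col1a2* was lost in 5 of these 8 fits. *Lum*, a proteoglycan gene, was higher, with a log2 fold change of 0.29 (adjusted p = 0.0474), but passed in only 1 of those 8 fits. The transcription factor gene *Foxc1*, which the meninges need to form, showed a log2 fold change of -0.04 (adjusted p = 0.817). *Col3a1*, the most abundant gene of the list, was at 20.5 CPM per kb over all brains.

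The 10 genes, with a median log2 fold change of -0.14, summed to 488 to 543 CPM in CDD and to 518 to 624 CPM in ND brains. *Slc6a13* was at 23.0, 17.4, 23.3 and 22.7 CPM in ND replicates 1 to 4 and at 15.6, 15.0, 14.47 and 13.0 CPM in CDD replicates 1 to 4. As with *Aldh1a2*, ND replicate 2 was the lowest ND brain for *Slc6a13* and for the summed list. Set against the summed list, *Aldh1a2* was at a log2 ratio of -5.73, -5.76, -5.70 and -5.63 in ND and of -5.89, -6.12, -5.91 and -6.20 in CDD replicates 1 to 4. This ratio did not overlap between the diets, and its difference of -0.33 was smaller in size than the log2 fold change of *Aldh1a2* itself. The part of the meningeal genes in the change of *Aldh1a2* was not tested.

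**Figure D3:**
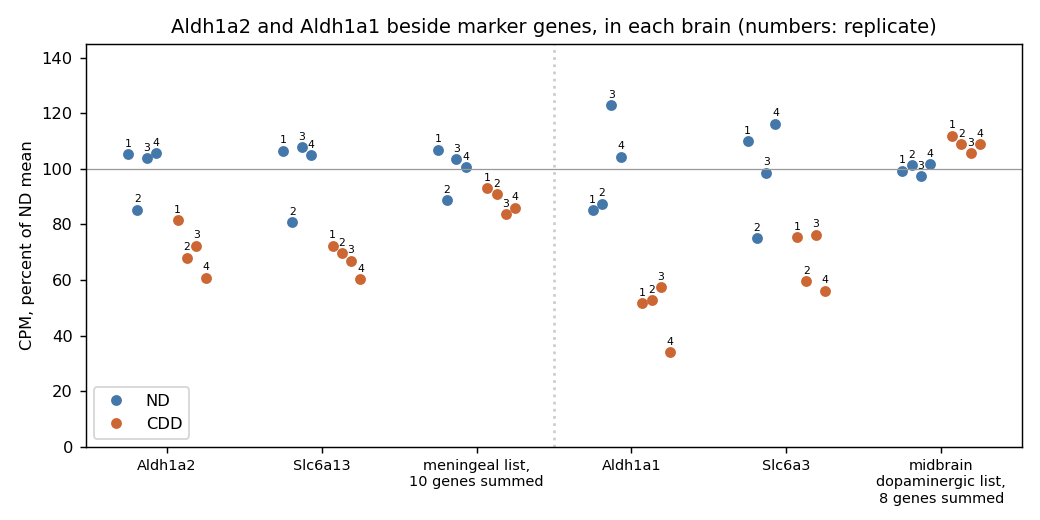
CPM as percent of the ND mean (vertical axis, from 0) for *Aldh1a2*, *Slc6a13* and the summed list of 10 meningeal genes (left) and for *Aldh1a1*, *Slc6a3* and the summed list of 8 genes of midbrain dopaminergic neurons (right), one point per brain with its replicate number. ND replicate 2 lies at 85.4% for *Aldh1a2*, 80.7% for *Slc6a13* and 88.8% for the meningeal list, and the dopaminergic list is higher in CDD brains (106 to 112%) while *Aldh1a1* is lower (34.0 to 57.5%).

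Of 8 genes of midbrain dopaminergic neurons, 1 was lower and 0 were higher in CDD brains in edgeR's test, and 4 had an unadjusted p under 0.05. This gene, *Slc6a3*, which encodes the dopamine transporter, showed a log2 fold change of -0.58 (adjusted p = 0.0358) at 59 to 127 reads per brain, and passed in 3 of 8 fits that left out a brain. Another of the 4, *Slc18a2*, went the other way, with a log2 fold change of 0.17 (adjusted p = 0.138 by edgeR). *Th*, the rate-limiting enzyme of dopamine synthesis, showed a log2 fold change of -0.09 (adjusted p = 0.651), and *Nr4a2*, the most abundant gene of the list, one of 0.01 (adjusted p = 0.931). The 8 genes, with a median log2 fold change of 0.06, summed to 131 to 138 CPM in CDD and to 120 to 126 CPM in ND brains, the opposite direction to *Aldh1a1*. The log2 ratio of *Aldh1a1* to this sum was -5.92 ± 0.348 (SD, n = 4) under CDD and -4.76 ± 0.264 (SD, n = 4) under ND, with no overlap. Of 12 eye genes, 11 were found and 5 tested. *Pou4f2*, the most abundant gene of the list and a factor of retinal ganglion cells, showed a log2 fold change of -0.36 (adjusted p = 0.0600 by edgeR). *Tyr*, *Cryaa* and *Cryba1*, which mark pigmented cells and lens, were at or near 0 in all brains, with at most 0.203 CPM. The pigment cell genes *Tyrp1* and *Pmel* were low but present, with 4 to 10 and 9 to 22 reads per brain. Low as well were *Rax*, *Crx* and *Atoh7* of the same list, with 10 to 30, 1 to 10 and 2 to 29 reads per brain. The eye list summed to 19.2 to 26.9 CPM in CDD and 25.7 to 26.4 CPM in ND brains. Most of this sum was *Pou4f2*, at 12.7 to 20.6 CPM over all brains, so a ratio to the list is mainly a ratio to *Pou4f2*. Whether the list measures eye tissue in these brains was not tested. The log2 ratio of *Aldh1a1* to the list was -3.35 ± 0.230 (SD, n = 4) under CDD and -2.51 ± 0.252 (SD, n = 4) under ND, again with no overlap. Of 10 genes of the striatal lineage, 1, *Ebf1*, was higher (log2 fold change 0.24, adjusted p = 0.0286), though it passed in 1 of 8 fits that left out a brain, and 0 were lower. The median log2 fold change of the list was 0.0038, and 6 of its genes had an unadjusted p under 0.05 by edgeR. Among them were genes of striatal neurons with values below 0, namely the dopamine receptor genes *Drd1* (-0.35, adjusted p = 0.0947) and *Drd2* (-0.25, adjusted p = 0.134), *Ppp1r1b* (-0.24, adjusted p = 0.138) and *Foxp1* (-0.13, adjusted p = 0.0798), while *Gsx2*, a progenitor factor, was at 0.28 (adjusted p = 0.132). The striatal list summed to 585 to 652 CPM in CDD and 600 to 609 CPM in ND brains, and the log2 ratio of *Aldh1a3* to it was -7.43 ± 0.215 (SD, n = 4) and -6.99 ± 0.101 (SD, n = 4) with no overlap. The part of these cell types in the changes of *Aldh1a1* and *Aldh1a3* was not tested.

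*Cyp26b1* (chromosome 6, 84548396 to 84570890) was the only gene of its family with more than traces of RNA: *Cyp26a1* was at most at 0.125 CPM and *Cyp26c1* at most at 0.203 CPM in any brain. *Cyp26b1* was at 56.3, 53.5, 62.2 and 54.7 CPM in ND replicates 1 to 4 and at 64.2, 86.3, 36.1 and 55.3 CPM in CDD replicates 1 to 4. The ND brains lay close together, whereas CDD replicates 1 and 2 were above and CDD replicate 3 below all of them. The SD was 34.4% of the mean in CDD and 6.75% in ND brains. The log2 fold change was 0.09 with a 95% interval of -0.54 to 0.72 (adjusted p = 0.881 by edgeR), which leaves room for a change in either direction. Without CDD replicate 2, the brain with the caudal genes, it was -0.13.

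Of the receptors, *Rara* (chromosome 11, 98818644 to 98865768) was the most abundant per length. It was at 17.1, 18.0, 17.4 and 17.5 CPM in ND and at 17.7, 19.5, 17.4 and 16.3 CPM in CDD replicates 1 to 4, so the CDD brains lay on both sides of the ND brains. Its log2 fold change was 0.02 with a 95% interval of -0.13 to 0.16 (adjusted p = 0.907 by edgeR), and -0.03 without CDD replicate 2. *Rarg* (chromosome 15, 102143373 to 102165952) was at 10.5, 9.57, 10.2 and 9.71 CPM in ND and at 9.81, 9.68, 9.04 and 7.96 CPM in CDD replicates 1 to 4. CDD replicates 3 and 4 were below all ND brains, and the log2 fold change was -0.13 with a 95% interval of -0.32 to 0.05 (adjusted p = 0.383). Together the 3 receptors were at 7.26 ± 0.399 CPM per kb (SD, n = 4) under CDD and 7.45 ± 0.115 CPM per kb (SD, n = 4) under ND. *Rara* held 56.0 ± 2.65% and 53.8 ± 1.68% of this sum, *Rarg* 29.4 ± 1.17% and 31.5 ± 1.52%, and *Rarb* 14.6 ± 3.13% and 14.7 ± 1.97%.

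*Rarb* (chromosome 14, 5650540 to 6038924) encodes the receptor that is itself a classical retinoic acid target. Its stretch around the start is shown because it is the only member's entry that holds a motif pair.
Rarb, chr14:16575427-16575726, minus strand: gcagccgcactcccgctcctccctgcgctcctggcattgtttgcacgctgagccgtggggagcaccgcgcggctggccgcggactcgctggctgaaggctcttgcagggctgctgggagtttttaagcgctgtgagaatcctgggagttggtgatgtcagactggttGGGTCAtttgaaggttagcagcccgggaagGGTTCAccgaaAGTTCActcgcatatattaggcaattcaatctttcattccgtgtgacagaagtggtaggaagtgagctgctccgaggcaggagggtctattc
The capitals are motifs on the gene's own strand, and the last 2 of the 3 form a pair with a gap of 5 bases. *Rarb* was at 5.38, 5.10, 5.55 and 7.04 CPM in ND and at 6.67, 4.0, 5.55 and 6.0 CPM in CDD replicates 1 to 4, and the diets overlapped. Its log2 fold change was -0.06 with a 95% interval of -0.36 to 0.24 (adjusted p = 0.862 by edgeR), and it turned positive without CDD replicate 2 (0.07) or without ND replicate 4 (0.05). The values of *Rarb* are uncertain, since it overlaps *Top2b* on the opposite strand, a gene with 18137 to 25177 reads per brain, and whether reads were counted by strand is not given in the sources used here. Of the windows of 100 bases in *Rarb* transcripts, 30.1% also occur in transcripts of *Top2b* or *Gm48162*. *Top2b* itself was higher in CDD brains, with a log2 fold change of 0.22 (adjusted p = 0.0282).

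The carriers CRABP1 and CRABP2 are small proteins that bind retinoic acid in the cytoplasm, CRABP2 being known for delivering it to RAR in the nucleus. *Crabp2* (chromosome 3, 87855973 to 87860683) was at 6.70, 6.56, 7.52 and 5.68 CPM in ND and at 8.69, 10.1, 7.60 and 8.14 CPM in CDD replicates 1 to 4. The diets did not overlap, although CDD replicate 3 lay just above ND replicate 3. The means were 8.64 ± 1.08 CPM (SD, n = 4) under CDD and 6.62 ± 0.752 CPM (SD, n = 4) under ND, and the log2 fold change was 0.38 (SE 0.109, adjusted p = 0.0353 by edgeR). The call held in 3 of 8 fits that left out a brain, with log2 fold changes of 0.30 to 0.45. It was lost without CDD replicate 1, CDD replicate 2, ND replicate 1, ND replicate 2 or ND replicate 4, with adjusted p up to 0.136, and with limma-voom (adjusted p = 0.0544).

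*Crabp1* (chromosome 9, 54672032 to 54680394) was at 9.04, 8.47, 9.02 and 7.60 CPM in ND and at 8.60, 12.7, 8.92 and 6.15 CPM in CDD replicates 1 to 4. CDD replicate 2 was the highest and CDD replicate 4 the lowest of all brains. The log2 fold change was 0.10 with a 95% interval of -0.30 to 0.49 (adjusted p = 0.805 by edgeR), and -0.11 without CDD replicate 2. *Crabp1* made up 62.7 ± 5.37% (SD, n = 4) of the carriers' summed level per length in CDD and 68.1 ± 1.16% in ND brains. CDD replicate 2 thus had the highest level of *Cyp26b1*, *Rara*, *Crabp1* and *Crabp2* and the lowest of *Aldh1a3* and *Rarb* among the CDD brains. The part of its caudal RNA in these values was not tested.

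The rest of the retinoid pathway was described with 31 further genes in 4 lists, of which 25 were tested and 2 passed, 1 in each direction. Their median log2 fold change was -0.03. Both were RXR genes, whose products pair with RAR. *Rxrg* was at 13.7, 12.3, 13.4 and 13.9 CPM in ND and at 9.09, 7.30, 10.04 and 9.56 CPM in CDD replicates 1 to 4, without overlap. Its log2 fold change was -0.56 (SE 0.0933, adjusted p = 0.00186 by edgeR), and the call held in all 8 fits that left out a brain. *Rxra* was at 29.0, 32.4, 30.0 and 28.8 CPM in ND and at 34.4, 40.2, 32.8 and 38.0 CPM in CDD replicates 1 to 4, also without overlap, though CDD replicate 3 lay close to ND replicate 2. Its log2 fold change was 0.27 (SE 0.0672, adjusted p = 0.0169), and the call held in 4 of those 8 fits. It was lost without CDD replicate 2, ND replicate 1, ND replicate 3 or ND replicate 4. The third gene, *Rxrb*, was the most abundant RXR per length at 21.0 CPM per kb over all brains, with a log2 fold change of -0.04 (adjusted p = 0.627). *Fabp5*, a fatty acid binding protein that can also carry retinoic acid, was the most abundant of this list at 50.2 CPM per kb, with a log2 fold change of -0.06 (adjusted p = 0.489).

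Of 19 genes of retinol supply and storage, 15 were tested and 0 passed by edgeR, DESeq2 or limma-voom. *Ttr*, which encodes a plasma carrier of retinol binding protein made in the choroid plexus, was the most abundant at 231 CPM per kb and showed a log2 fold change of 0.03 with a 95% interval of -0.74 to 0.80. It ranged from 149 to 439 CPM in CDD and from 248 to 292 CPM in ND brains. *Rdh10*, the main enzyme of the first oxidation step in embryos, showed a log2 fold change of -0.11 (adjusted p = 0.309), and the retinol receptor gene *Stra6* one of -0.02 (adjusted p = 0.906). *Dhrs3*, which turns retinaldehyde back into retinol, had one of -0.27 (adjusted p = 0.142) and *Rdh13* one of -0.13 (adjusted p = 0.134), both with an unadjusted p under 0.05 (0.0263 and 0.0235). By edgeR and DESeq2 2 genes of this list had an unadjusted p under 0.05, and by limma-voom 3. Of 6 coregulators, 0 passed by edgeR, DESeq2 or limma-voom, and 2 had an unadjusted p under 0.05. The corepressor gene *Ncor1*, the most abundant of them at 26.9 CPM per kb, had a log2 difference of 0.13 (adjusted p = 0.150 by edgeR), and *Nrip1* had one of -0.17 (adjusted p = 0.133). Neither of the 2 other breakdown enzymes reached the filter on low counts.

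**Figure D4:**
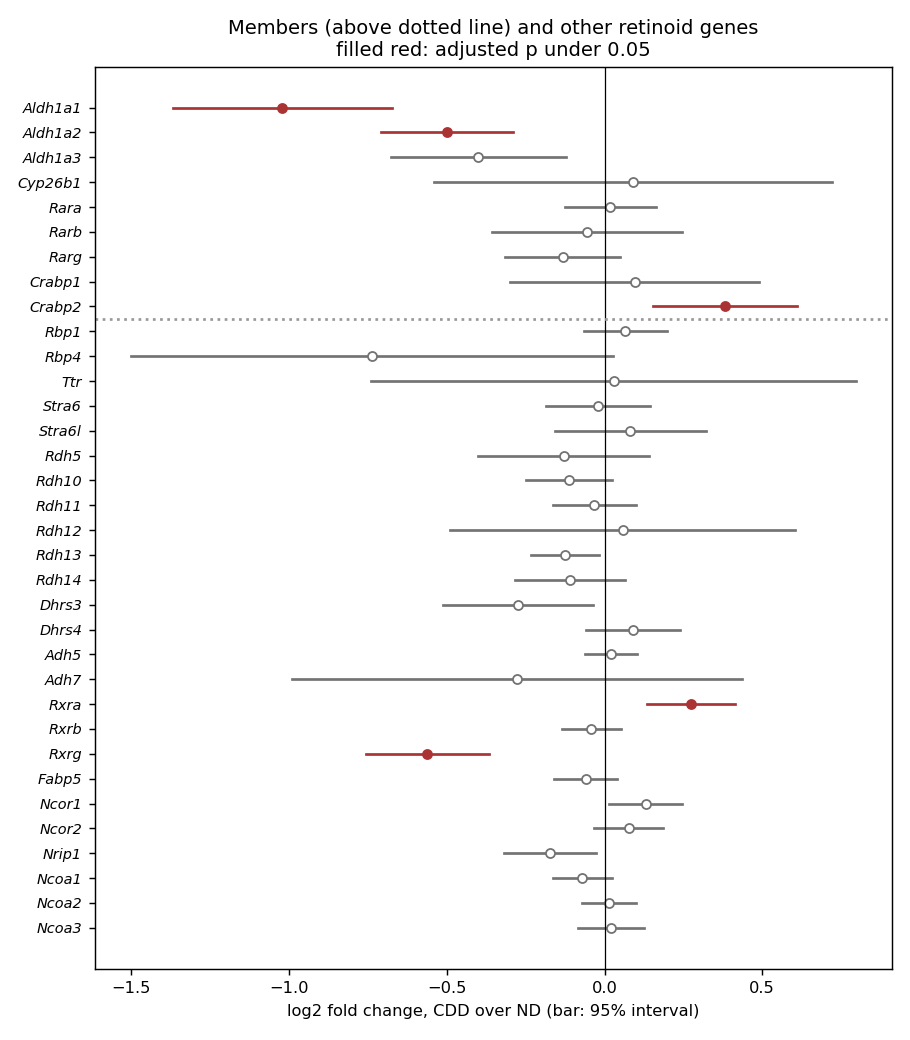
Log2 fold change of CDD over ND (horizontal axis) with its 95% interval for the 9 members (above the dotted line) and the 25 tested genes of the wider pathway (below it). Filled red points passed the threshold: *Aldh1a1* (-1.02), *Aldh1a2* (-0.50) and *Rxrg* (-0.56) are lower, and *Crabp2* (0.38) and *Rxra* (0.27) are higher in CDD brains.

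Of 15 genes known to respond to retinoic acid, 13 were found and 8 tested, 4 of which are also among the pathway genes above. In edgeR's test, DESeq2 and limma-voom 0 passed, and *Dhrs3* and *Nrip1* had an unadjusted p under 0.05. The median log2 fold change of the list was 0.0076. *Meis2*, a homeobox gene and the most abundant of the list at 24.3 CPM per kb, showed a log2 fold change of 0.04 (adjusted p = 0.687). *Meis1* was at 51.0 CPM in CDD replicate 2, against 26.1 to 33.4 CPM in the other CDD brains and 26.3 to 29.5 CPM in the ND brains, and *Tgm2*, a transglutaminase gene, showed a log2 fold change of 0.12 (adjusted p = 0.528). *Hoxd4* had its highest value, 0.666 CPM, in CDD replicate 2 and did not pass the filter on low counts.

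Markers of other cell types that a whole brain sample can hold were counted in edgeR's test as well. Of the 9 choroid plexus genes, all of them tested, 0 passed (1 each with DESeq2 and limma-voom, and 2 at an unadjusted p under 0.05), and their sum ran from 188 to 503 CPM in CDD and from 286 to 330 CPM in ND brains. Of the 8 forebrain genes 1 was higher, *Emx2* (log2 fold change 0.26, adjusted p = 0.0433), a factor of cortical progenitors, and of the 9 genes of head mesenchyme and cartilage, 6 of them tested, 1 was higher, *Col2a1* (0.22, adjusted p = 0.0313). The mesenchyme list, from a tissue where *Crabp2* is also known, summed to 132 to 144 CPM in CDD and to 112 to 132 CPM in ND brains, and its part in the value of *Crabp2* was not tested. *Cldn5*, a tight junction gene and 1 of 6 endothelial genes, was lower (-0.28, adjusted p = 0.00768) and the other endothelial genes did not pass. *Hbb-y* and *Hba-x*, embryonic globin genes among 8 erythroid genes, were higher (2.24, adjusted p = 0.00651, and 1.67, adjusted p = 0.0208), whereas the median of the 8 was -0.56 and their sum ran from 759 to 1416 CPM in CDD and from 823 to 2983 CPM in ND brains. With a brain left out, *Emx2* and *Col2a1* each passed in 2 of 8 fits, *Hba-x* in 6 (not without ND replicate 1 or ND replicate 4), and *Cldn5* and *Hbb-y* in all 8. Of 6 pituitary genes 4 were found and 2 tested, of 5 genes of olfactory sensory neurons 1 was tested, and of the 12 caudal genes 2 were tested. In these lists 0 genes passed, and 0 had an unadjusted p under 0.05, by edgeR, DESeq2 and limma-voom.

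The genes that varied most like a member within the diets were found by the correlation of log2 CPM, centred on the mean of each diet, over the 8 brains. For *Aldh1a1* they were *Rufy2* (r = 0.99), *Kcnip2* (r = 0.98) and *Mlx* (r = 0.98), for *Aldh1a2* they were *Lipo3* (r = 0.97), *Ankrd54* (r = 0.97) and *Cftr* (r = 0.97), and for *Crabp2* they were *Lhx4* (r = 0.95), *Slc2a10* (r = 0.94) and *Kcnc2* (r = 0.94). These are the highest of 16024 genes searched, over 8 libraries within each of which all genes share a depth and a dissection, and are given as a description. Among the members themselves, r lay between -0.83 for *Aldh1a3* with *Rara* and 0.90 for *Rara* with *Crabp1*. CDD replicate 2 is at an end of the range for all of these 3 genes. *Aldh1a1* and *Aldh1a2* had r = 0.61 within the diets, and *Aldh1a2* and *Aldh1a3* had r = 0.15.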

How the data were processed

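Whole E14.5 WT brains, 4 per diet, were grouped by the maternal diet in their labels. The authors deposited raw counts per gene and brain without normalization, and FPKM values with the gene length listed beside them. The submitters' processing notes name HISAT2 2.0.5, featureCounts 1.5.0-p3 and DESeq2 1.20.0. The genome build and the strand setting of the counting are not given in the sources used here. The deposited fold changes and p-values of the authors' own comparison were not used.

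From the counts, genes were filtered with filterByExpr (19367 of 33971 left), scaled by TMM and tested with the robust quasi-likelihood test of edgeR 4.0.16 in R 4.3.3, with diet as the single term. The test was tried on simulated counts first. Library totals limit the precision of rare genes, such as *Aldh1a1* with 52 to 196 reads per brain. Alternatives were DESeq2 1.42.0, limma-voom (limma 3.58.1), RLE and upper-quartile scaling, no filter, a minimum of 10 counts per brain, a block for the replicate number, a covariate for *Xist*, leaving out single brains, and the authors' FPKM for levels. Promoters came from RefSeq tables on GRCm38.p6.

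The members and lists were chosen with earlier results of these data known. All members are named. Of each other list, the genes past the threshold and the most abundant gene per length are named, with others chosen after their values were seen. A gene that this selects is left unreported. For likeness, the 3 genes with the highest correlation were taken among tested genes whose mean reached 1 CPM.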

Additional observations from a re-analysis of the deposited data

Results flagged for a closer look

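Of 70 groups of 4 brains examined, 3 had a single outlying brain, and chance alone would give 3.5. *Aldh1a2* in ND replicate 2 was at 9.57 CPM, against 11.6 to 11.8 CPM in the other ND brains. *Slc6a13*, the meningeal transporter gene, was at 17.4 CPM in the same brain, against 22.7 to 23.3 CPM. The summed list of caudal hindbrain and spinal cord genes was at 141 CPM in CDD replicate 2, against 3.83 to 9.54 CPM in the other CDD brains.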

How the results depend on the processing

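*Aldh1a1*, *Aldh1a2* and *Rxrg* kept their direction and stayed past the threshold under all 8 other settings of the test and with each brain left out. The number of members past the threshold, 3, was 4 with DESeq2 or without the filter, 2 with limma-voom, 3 under each other setting, and 2 to 4 with a brain left out. The 2 pathway genes became 1 to 3 with a brain left out, with 1 left (*Rxrg*) without CDD replicate 2, ND replicate 1, ND replicate 3 or ND replicate 4. The count of response genes, 0, was 2 without the filter on low counts (*Hoxd4* and *Nrip1*), 1 with the replicate block and 1 with *Xist* as a covariate (*Nrip1* in both), and 0 to 1 with a brain left out. Signs turned for genes that never passed: *Cyp26b1* ranged from -0.13 to 0.28, *Rara* from -0.029 to 0.056, *Rarb* from -0.15 to 0.072 and *Crabp1* from -0.11 to 0.24 with a brain left out. For *Cyp26b1*, *Rara* and *Crabp1* the only such brain was CDD replicate 2, and for *Rarb* they were CDD replicate 2 (0.072) and ND replicate 4 (0.055). The cause of these shifts was not tested.

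No pairing of the brains by replicate number was evident: deviations of same-numbered CDD and ND brains had correlations of 0.083, -0.277, 0.180 and 0.156. These values cannot exclude a shared batch. With the replicate block, 3 members and 3 pathway genes passed, and 1812 genes of all tested. Without ND replicates 1, 3 or 4 the count over all tested genes (1710) was 688, 471 and 615. Levels per length moved by less than the spread between brains when the authors' FPKM was used.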
